A study of Mus musculus with 9 samples.

Results

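The lysosome and autophagy genes described here are 41 mouse genes named by symbol, and all 41 symbols are rows of the deposited table of 45808 gene symbols. They comprise 11 cathepsins, 11 other hydrolases and activator proteins of the lysosome, 6 proteins of its membrane and proton pump, the transcription factors Tfeb and Tfe3, and 11 autophagy genes. Their RNA was measured by sequencing in cultured mK4 cells, which come from mesenchyme of the embryonic mouse kidney, in medium containing 10% fetal bovine serum. Control cells (n = 5) had the Foxd2 wildtype genotype and had gone through CRISPR/Cas targeting with a guide that has no target, and F7 cells (n = 4) were a CRISPR/Cas clone with a homozygous FOXD2 frameshift. The series addresses the loss of this forkhead transcription factor in renal hypoplasia and dysplasia. F7 is 1 clone, so its genotype and its clonal origin cannot be told apart. The labels do not say that replicates were separate cultures, so the p-values rest on variation among these 9 libraries that could be technical only.

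Library totals ran from 6041556 to 16032175 counts. F7 replicates 3 and 4 had the lowest totals, 6041556 and 6590712, and the raw table's headers give mk3, not mk4, for these libraries. Foxd2 RNA itself measured 3.73 ± 0.538 CPM (n = 5, SD) in control and 18.3 ± 3.78 CPM (n = 4, SD) in F7 (log2 fold change 2.30 with SE 0.15, edgeR adjusted p = 1.93e-07), and counts per gene do not show a frameshift. Of 11 marker genes of metanephric and induced mesenchyme, 8 were tested. Of these, 6 fell (Pax2, Pax8, Wnt4, Cdh6, Emx2 and Sall1), Vim and Lhx1 were not called, and Six2 and Wt1 had no read. Pax2 and Emx2 lie on distal chromosome 19 and Sall1 on chromosome 8, where 68.6% and 60.7% of tested genes were lower. The chromosome 19 stretch was drawn from these same fold changes, by the rule given below. Vim alone, at 2092 ± 295 CPM in control (n = 5, SD) and 2408 ± 186 CPM in F7 (n = 4, SD), made up most of the list's sum. Summed marker levels were 2756 to 3483 CPM (counts scaled to library size) in control and 2615 to 2987 CPM in F7 for this list. They were 13.1 to 30.5 and 18.0 to 22.0 CPM for 10 macrophage markers, nearly all from Cd14 (18.0 ± 6.91 CPM in control, n = 5, and 15.5 ± 1.77 CPM in F7, n = 4, SD) and Csf1r (3.77 ± 1.5 and 3.36 ± 0.422 CPM), neither of them called, with Tyrobp at no read and Ptprc, Adgre1 and Lyz2 near 0. They were at most 0.918 CPM for 6 osteoclast and 6 endothelial markers. The 6 epithelial markers summed to 4.74 to 8.09 CPM in control and 3.98 to 4.71 CPM in F7, nearly all from Cdh1 and Ehf, with Epcam at no read. Ehf was called lower (log2 fold change -1.13, edgeR adjusted p = 6.77e-04), and Cdh1 was not called (log2 fold change 0.41). The part of these marker changes in the results below was not tested.

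Lysosomes are acidic organelles in which hydrolases break down material delivered by endocytosis and autophagy. Their membrane glycoproteins protect and transport, a proton pump keeps the lumen acid, and most hydrolases reach the organelle with a mannose 6-phosphate tag. Autophagy encloses cytoplasm in a double membrane decorated with LC3 and GABARAP proteins and hands it to the lysosome. TFEB and TFE3 are related transcription factors that move to the nucleus when nutrients run short and bind CLEAR elements in promoters of lysosomal and autophagy genes. In the kidney, tubule cells depend on this system to degrade reabsorbed protein, and several inherited lysosomal storage diseases affect it.

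The letters TCACGTGA, the core of the CLEAR element, were searched on both strands of RefSeq promoter windows (GRCm38.p6) that reach from 250 bases before to 50 after each annotated start. Of the 36 members that matched a window by symbol, 4 held them (11.1%), against 1.12% of all 27025 genes with a window and 2.26% of the 9037 of these that were tested for expression. The stretches before the start of these genes are shown because they hold the site by which TFEB and TFE3 are known to recognise lysosomal genes, with the core and the related TCATGTGA (TCACATGA on the other strand) in capitals.
Ctsa: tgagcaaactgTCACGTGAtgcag
Ctsd: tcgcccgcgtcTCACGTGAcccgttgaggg
Gla: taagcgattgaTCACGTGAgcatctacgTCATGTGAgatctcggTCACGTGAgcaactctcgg
Mcoln1: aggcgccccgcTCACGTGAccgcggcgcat
The stretch of Ctsa, the protective carboxypeptidase, lies at chr2:164833749-164833772 (plus strand, 24 to 1 bases before the start), and that of Ctsd, the main aspartic protease, at chr7:142387908-142387937 (minus strand, 110 to 81 bases before the start). That of Gla, alpha-galactosidase A, lies at chrX:134601182-134601244 (minus strand, 239 to 177 bases before the start) and holds 2 cores and 1 related site. That of Mcoln1, the calcium channel of the lysosomal membrane, lies at chr8:3500462-3500491 (plus strand, 57 to 28 bases before the start). The stretches of Ctsa, Ctsd and Mcoln1 fall inside the longer extent that GENCODE gives these genes. The window of Ctsa also holds another core, which lies after the start and is not shown. A match describes letters and not binding.

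In clone F7 these genes did not move in one direction. Of the 37 members with enough reads to test, 6 rose (Ctsz, Ctsl, Cd63, Wipi1, Map1lc3a and Sqstm1) and 8 fell (Ctsb, Ctsk, Neu1, Lamp1, Lamp2, Mcoln1, Ulk1 and Map1lc3b) by edgeR at an adjusted p under 0.05 over all 14730 tested genes. This was 16.2% higher and 21.6% lower, beside 17.4% and 17.9% of all tested genes, so both shares lay near the background. Without F7 replicate 1 or 2 the number that fell was 3 or 4. The shares of all genes called in each of those fits are not given here, so this drop has no background beside it. All F7 libraries lay above all controls in 5 tested members and below them in 4, where 13.9% and 13.7% of all tested genes did so. The median log2 fold change (F7 against control) was -0.06 over the tested members and -0.01 over all tested genes. In RNA from whole cultures, fewer cells that express a gene and less RNA per cell cannot be told apart. Ctsc, Ctsf, Ctsh and Ctss had too few reads to be tested. Ctsk passed the filter through its controls, all 5 of which reached the filter's level of 0.833 CPM against 2 F7 libraries.

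**Figure D1:**
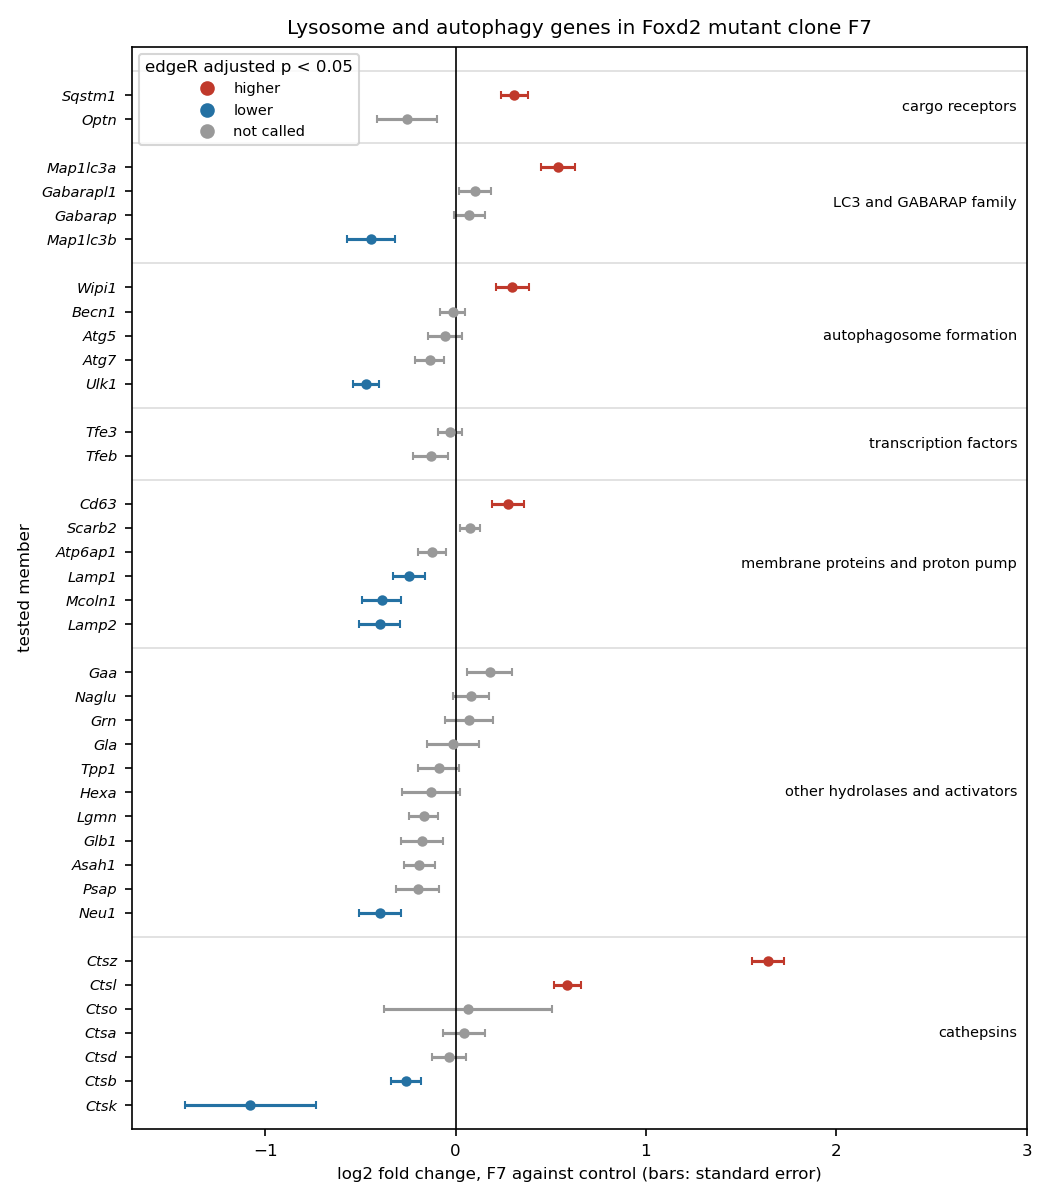
Log2 fold change of F7 against control (x axis) for the 37 tested members (y axis), grouped by role, with the standard error as bars and the edgeR call as colour. Ctsz (1.64) and Ctsk (-1.08) mark the ends, and 10 of the 11 hydrolases and activators other than cathepsins were not called.

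Levels per kilobase of annotated exon spanned a wide range, with the caveat that annotated exons pool all isoforms. In control cells the order was led by the saposin precursor Psap (417 ± 39.3 CPM per kilobase, SD, n = 5), the lysosomal glycoprotein Lamp1 (372 ± 22.1), Ctsd (239 ± 28.7), Lamp2 (125 ± 8.94) and Gabarap (109 ± 8.37). The SD ranges of Psap and Lamp1 overlapped, as did those of Lamp2 and Gabarap. Ctsk stood at 1.09 ± 0.353, and Ctso, Ctsf, Ctsc and Ctsh stood lower still, between 0.0340 and 0.158 CPM per kilobase. Summed over all 41 members, controls held 6866 to 7979 CPM and F7 libraries 6316 to 7605 CPM, which overlap.

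Cathepsins, the proteases of the lysosome, moved in both directions, with 2 higher, 2 lower and 3 not called of 7 tested (log2 fold changes -1.08 to 1.64). This was 28.6% each way, beside 17.4% higher and 17.9% lower among all tested genes. Ctsz (ENSMUSG00000016256.10; chromosome 2, 174427493 to 174439039, minus strand; IDs and positions of all members are those of GENCODE M21 on mm10, matched by symbol) encodes cathepsin Z, a carboxypeptidase. Ctsz measured 29.4, 28.5, 31.4, 25.5 and 26.9 CPM in control libraries 1 to 5 and 84.3, 77.8, 98.1 and 94.7 CPM in F7 libraries 1 to 4. Each F7 library was more than any control and the groups lay far apart, a rise from 28.3 ± 2.25 CPM (n = 5, SD) to 88.7 ± 9.35 CPM (n = 4, SD) that equals 3.12-fold (log2 fold change 1.64 with SE 0.08, edgeR adjusted p = 1.39e-08). It was the one member called in a test against a fold of 1.5. Ctsl (ENSMUSG00000021477.9; chromosome 13, 64359337 to 64370890, minus strand) encodes cathepsin L, a broad endopeptidase. Ctsl measured 306, 323, 362, 339 and 372 CPM in control libraries 1 to 5 and 519, 486, 510.2 and 529.8 CPM in F7 libraries 1 to 4. All F7 libraries were above all controls, by a fitted 50.2% (log2 fold change 0.59 with SE 0.07, edgeR adjusted p = 3.30e-05).

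Cathepsin B fell, and cathepsin K fell at low levels. Ctsb (ENSMUSG00000021939.8; chromosome 14, 63122462 to 63145923, plus strand) measured 276, 287, 304, 253 and 264 CPM in control libraries 1 to 5 and 213, 209.6, 256 and 247 CPM in F7 libraries 1 to 4. F7 replicate 3 lay within the control range and the other F7 libraries below it (log2 fold change -0.26 with SE 0.08, edgeR adjusted p = 0.0214). The call was lost without F7 replicate 1 or 2 (edgeR adjusted p = 0.0863 and 0.0833). Ctsb overlaps Fdft1 on the opposite strand, a gene with a log2 fold change of 0.73, and since the use of strand in counting is not given in the sources used here, reads of the shared end cannot be assigned. Ctsa likewise overlaps Neurl2 and Pltp, the annotated gene Gm20388 spans Map1lc3b on the same strand, and Gm49369 covers part of Ctsd on the same strand. Ctsk (ENSMUSG00000028111.4; chromosome 3, 95499256 to 95509362, plus strand), the collagen-degrading cathepsin known from osteoclasts (whose markers summed to at most 0.337 CPM), had 106 reads in control and 30 in F7. Ctsk measured 1.75, 1.33, 0.996, 2.41 and 1.77 CPM in control libraries 1 to 5 and 0.951, 0.943, 0.336 and 0.612 CPM in F7 libraries 1 to 4, with no overlap between groups (log2 fold change -1.08 with SE 0.35, edgeR adjusted p = 0.0275). Its call was lost without control replicate 1 or 4 (edgeR adjusted p = 0.0508 and 0.0568) and without F7 replicate 3 or 4 (0.0673 and 0.0646).

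The most abundant cathepsin gene, Ctsd, did not pass the test. Ctsd measured 543, 521, 676, 506 and 565 CPM in control libraries 1 to 5 and 549.6, 497, 569 and 585 CPM in F7 libraries 1 to 4, and the groups overlapped. Ctsa, whose product also shields beta-galactosidase and neuraminidase, measured 243, 262, 223, 200.2 and 189.7 CPM in control libraries 1 to 5 and 201, 202, 268 and 253 CPM in F7 libraries 1 to 4. F7 replicate 3 was the highest library and replicate 4 was exceeded by it and control replicate 2 alone, while F7 replicates 1 and 2 lay between control replicates 4 and 3. The low gene Ctso ranged from 0.343 to 1.84 CPM without a call. Among the untested members, Ctsf was seen in 36 control reads and 1 F7 read, which gives a depth-scaled ratio of 21.0 (95% exact binomial interval 3.54 to 853). Ctsc had 21 and 3 reads, a ratio of 4.09 (interval 1.22 to 21.4). In the authors' deposited table, Ctsf had a log2 fold change of -4.02 with a DESeq2 adjusted p of 0.00261, and Ctsc had -1.89 with 0.184. That table covers more columns than the libraries used here and is not independent of them. Ctsf was also called lower by DESeq2 and by edgeR without a low-count filter. Ctsh was seen in 9 control reads and 15 F7 reads, a depth-scaled ratio of control to F7 of 0.35 (interval 0.135 to 0.855), the opposite direction to Ctsf and Ctsc. Ctss, a cathepsin of antigen-presenting cells, had no read in any library, which allows up to 0.0463 CPM in the control group and 0.0793 CPM in F7 at 3 counts a group. These intervals and limits cover counting error only.

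The other hydrolases and activators held 1 called gene of 11, with a median log2 fold change of -0.13 and a range of -0.40 to 0.18. That gene fell (9.09%), beside 17.9% lower and 17.4% higher among all tested genes. Neu1 (ENSMUSG00000007038.5; chromosome 17, 34931253 to 34935953, plus strand), the lysosomal sialidase, measured 32.4, 42.1, 39.5, 33.3 and 29.8 CPM in control libraries 1 to 5 and 24.8, 24.8, 31.3 and 27.8 CPM in F7 libraries 1 to 4. F7 replicate 3 lay within the control range and the other 3 below it, a fall from 35.4 ± 5.14 CPM (n = 5, SD) to 27.2 ± 3.08 CPM (n = 4, SD) (log2 fold change -0.40 with SE 0.11, edgeR adjusted p = 0.015). Without F7 replicate 1 or 2 the call was lost (edgeR adjusted p = 0.0626 and 0.0562). Psap, whose product is cut into the saposins that assist sphingolipid hydrolases, measured 1239.6, 1205, 1223, 1008 and 1049 CPM in control libraries 1 to 5 and 851, 852, 1179 and 1113 CPM in F7 libraries 1 to 4. F7 replicates 1 and 2 lay below all controls, whereas replicates 3 and 4 lay among them, and the gene was not called (log2 fold change -0.20 with SE 0.11, edgeR adjusted p = 0.186). Acid ceramidase, Asah1, measured 266, 272, 275, 242 and 232 CPM in control libraries 1 to 5 and 207, 203, 249.6 and 246 CPM in F7 libraries 1 to 4, again with F7 replicates 1 and 2 lowest (log2 fold change -0.19 with SE 0.08, edgeR adjusted p = 0.0871). It was called without control replicate 5 (log2 fold change -0.23, edgeR adjusted p = 0.0406).

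The remaining 8 genes of this group overlapped between the groups and were not called. Gaa, the glycogen-degrading alpha-glucosidase, measured 115, 127, 105, 89.5 and 91.1 CPM in control libraries 1 to 5 and 105, 108, 145 and 123 CPM in F7 libraries 1 to 4. Grn, the progranulin gene, measured 296, 317, 265, 221 and 225 CPM in control libraries 1 to 5 and 237, 245, 331 and 301 CPM in F7 libraries 1 to 4. In both genes F7 replicate 3 was the highest library of all 9, and control replicates 4 and 5 were the lowest. Hexa, a subunit of beta-hexosaminidase, measured 60.8, 71.3, 55.7, 48.8 and 48.8 CPM in control libraries 1 to 5 and 43.2, 43.1, 62.3 and 63.2 CPM in F7 libraries 1 to 4, with F7 replicates 1 and 2 below every control and replicates 3 and 4 above all but control replicate 2. Tpp1, a tripeptidyl peptidase, ranged from 88.1 to 119 CPM in control and from 84.2 to 109 CPM in F7. The asparagine endopeptidase Lgmn ranged from 128 to 145 and from 111 to 137 CPM. F7 replicate 2 was the lowest library for both genes. Glb1, beta-galactosidase, ranged from 37.3 to 52.0 and from 32.0 to 43.9 CPM. Gla ranged from 37.7 to 61.5 CPM in control, the highest value coming from control replicate 2, and from 40.3 to 51.4 CPM in F7. Naglu, which acts on heparan sulfate, ranged from 17.5 to 22.7 and from 19.9 to 24.4 CPM.

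Of 6 genes of the lysosomal membrane and proton pump, 3 fell and 1 rose, where 17.9% and 17.4% of all tested genes did. Of the falls, Lamp1 and Mcoln1 lie on chromosome 8, where 60.7% of tested genes were lower. Lamp2 (ENSMUSG00000016534.15; chromosome X, 38401357 to 38456454, minus strand), a main membrane glycoprotein also needed for chaperone-mediated autophagy, measured 1249, 1300.5, 1081, 1189 and 1151 CPM in control libraries 1 to 5 and 809, 755, 959 and 1101 CPM in F7 libraries 1 to 4. The first 3 F7 libraries lay below all controls and F7 replicate 4 within their range, a fall from 1194 ± 85.4 CPM (n = 5, SD) to 906 ± 156 CPM (n = 4, SD) (log2 fold change -0.40 with SE 0.11, edgeR adjusted p = 0.0114). Its call was lost without F7 replicate 1 (edgeR adjusted p = 0.0504). Lamp1 (ENSMUSG00000031447.7; chromosome 8, 13159161 to 13175338, plus strand), its close relative, measured 997, 1084, 1006, 930.1 and 955 CPM in control libraries 1 to 5 and 783, 753, 899.9 and 923 CPM in F7 libraries 1 to 4. The groups did not overlap, but F7 replicate 4 and control replicate 4 differed by little (log2 fold change -0.24 with SE 0.08, edgeR adjusted p = 0.0346). Lamp1 overlaps Grtp1 on the opposite strand, so the same limit as for Ctsb holds. The Lamp1 call was lost without control replicate 1 or 2 (edgeR adjusted p = 0.059 and 0.0622) and without F7 replicate 1 or 2 (0.121 and 0.125).

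Mcoln1 (ENSMUSG00000004567.16; chromosome 8, 3500457 to 3515232, plus strand) measured 107, 115, 91.7, 91.1 and 76.8 CPM in control libraries 1 to 5 and 71.6, 68.6, 77.3 and 78.3 CPM in F7 libraries 1 to 4. All F7 libraries but replicates 3 and 4 lay below every control, and these 2 exceeded control replicate 5 alone (log2 fold change -0.39 with SE 0.10, edgeR adjusted p = 0.0116). Cd63 (ENSMUSG00000025351.14; chromosome 10, 128900989 to 128912822, plus strand), a tetraspanin of late endosomes and exosomes, measured 109.6, 124, 131, 96.5 and 109 CPM in control libraries 1 to 5 and 138, 129, 142 and 144 CPM in F7 libraries 1 to 4. F7 replicate 2 lay below the highest control and the other F7 libraries above it (log2 fold change 0.28 with SE 0.08, edgeR adjusted p = 0.0196), and without F7 replicate 4 the call was lost (edgeR adjusted p = 0.0531). Scarb2, the receptor that carries glucocerebrosidase to the lysosome, measured 75.5, 79.3, 77.8, 73.8 and 77.1 CPM in control libraries 1 to 5 and 79.1, 77.8, 84.4 and 82.6 CPM in F7 libraries 1 to 4, a narrow range with overlapping groups. Atp6ap1, an accessory subunit of the proton pump, measured 173, 189, 169, 151 and 159 CPM in control libraries 1 to 5 and 142, 148, 164 and 164 CPM in F7 libraries 1 to 4 and was not called.

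**Figure D2:**
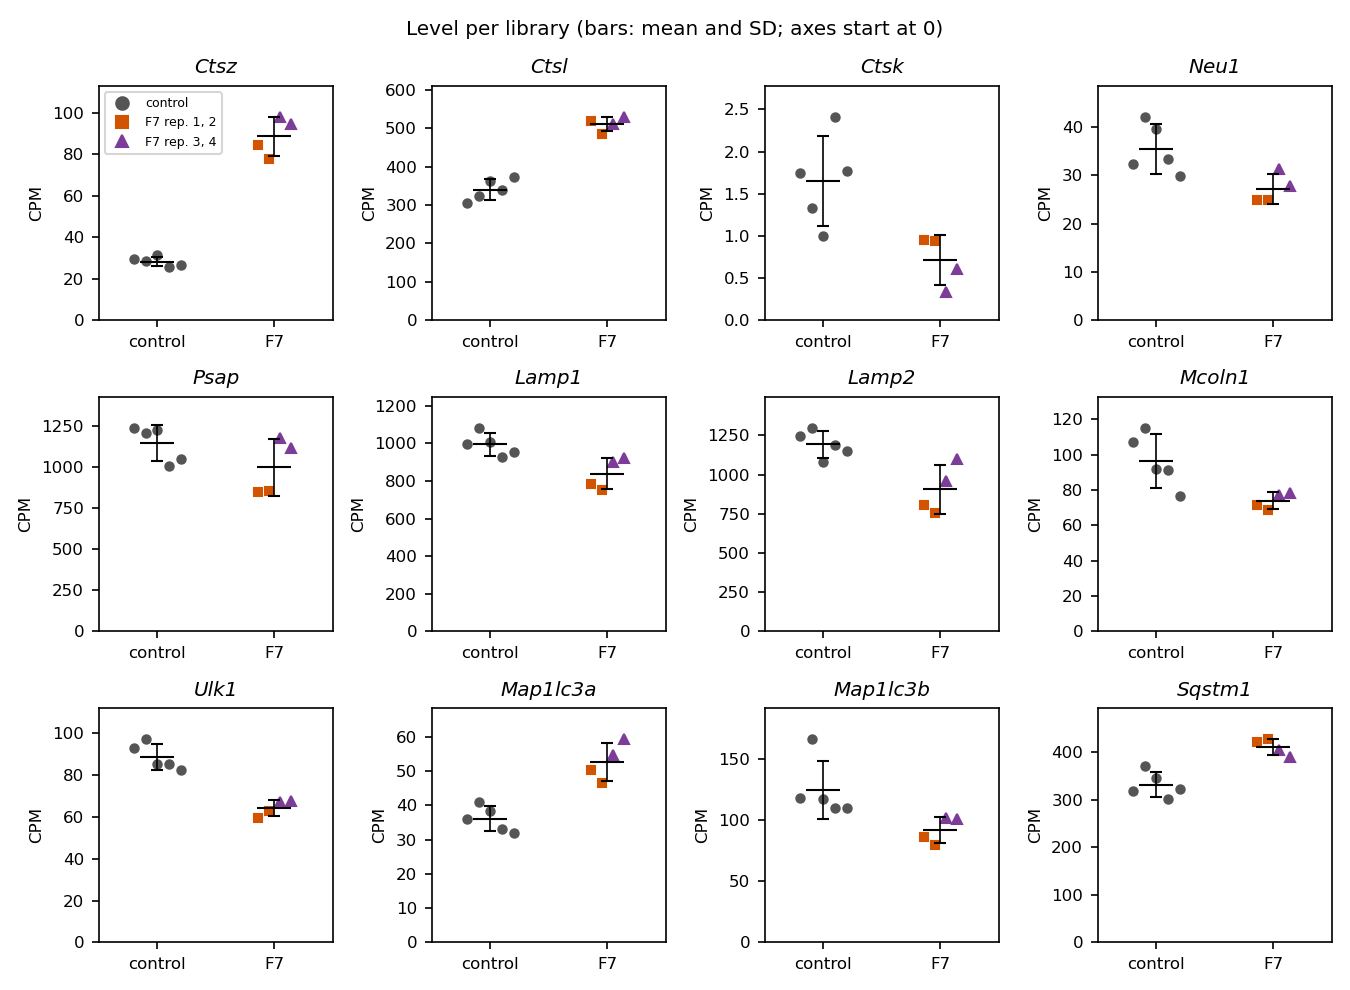
CPM in each library (y axes, linear and from 0) for 12 members in control (circles) and F7 (squares for replicates 1 and 2, triangles for replicates 3 and 4), with the mean and SD as bars. Ctsz, Ctsl, Map1lc3a and Sqstm1 lie higher in all F7 libraries than in any control, and Ctsk, Lamp1, Ulk1 and Map1lc3b lie lower. Psap, Neu1, Lamp2 and Mcoln1 overlap through F7 replicate 3 or 4 or both.

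RNA of both transcription factors of the pathway overlapped between the groups. Tfeb measured 27.1, 25.9, 26.1, 27.0 and 23.2 CPM in control libraries 1 to 5 and 23.5, 22.3, 28.2 and 21.1 CPM in F7 libraries 1 to 4 (log2 fold change -0.13 with SE 0.09, edgeR adjusted p = 0.291). Tfe3 measured 102, 101, 105, 104 and 109 CPM in control libraries 1 to 5 and 103, 108, 108 and 90.1 CPM in F7 libraries 1 to 4 (log2 fold change -0.03 with SE 0.06, edgeR adjusted p = 0.75). F7 replicate 4 was the lowest library for both. Their activity is set mainly by where the protein is in the cell, which RNA counts do not show. A promoter window was matched for 9037 of the 14730 tested genes, and the shares called among these alone are not given here. Among tested genes whose promoter window held TCACGTGA, 19 of 204 rose (9.31%) and 34 fell (16.7%), with a median log2 fold change of -0.03. Of all tested genes, with or without a window, 17.4% rose and 17.9% fell. Of the 4 members with TCACGTGA, printed above, Mcoln1 fell and Ctsa, Ctsd and Gla were not called. The 6-letter E-box CACGTG, which the CLEAR core contains, was in the window of 13 of 36 members (36.1%). It was in 8.09% of all genes with a window and in 11.8% of the tested genes with one. Of 12 tested members that held it, 1 rose and 2 fell. TCATGTGA was found in 4 members (Ctss, Gla, Grn and Tpp1; 11.1%) and in 1.1% of all genes with a window.

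Of 5 genes of autophagosome formation, 1 fell and 1 rose, where 17.9% and 17.4% of all tested genes did. Ulk1 (ENSMUSG00000029512.11; chromosome 5, 110784488 to 110810097, minus strand), the kinase that initiates autophagosomes, measured 93.1, 97.4, 85.5, 85.3 and 82.5 CPM in control libraries 1 to 5 and 59.7, 62.7, 67.1 and 67.6 CPM in F7 libraries 1 to 4. Every F7 library was below every control, a fall from 88.8 ± 6.24 CPM (n = 5, SD) to 64.3 ± 3.76 CPM (n = 4, SD) (log2 fold change -0.47 with SE 0.07, edgeR adjusted p = 1.72e-04), and it was still called when F7 replicates 1 and 2 were left out together (log2 fold change -0.39, edgeR adjusted p = 0.0132). Wipi1 (ENSMUSG00000041895.15; chromosome 11, 109573331 to 109611967, minus strand), a phosphoinositide-binding protein of the forming membrane, measured 30.5, 30.9, 31.7, 24.0 and 27.6 CPM in control libraries 1 to 5 and 34.8, 34.1, 35.6 and 38.5 CPM in F7 libraries 1 to 4. All F7 libraries lay above all controls (log2 fold change 0.30 with SE 0.09, edgeR adjusted p = 0.0188), but the call was lost without F7 replicate 4 (edgeR adjusted p = 0.0548). Becn1, a subunit of the autophagy lipid kinase, stayed between 60.6 and 70.5 CPM in all 9 libraries. Atg5, part of the complex that conjugates LC3 to lipid, ranged from 22.4 to 28.5 CPM, and the activating enzyme Atg7 from 23.4 to 28.7 CPM. None of these 3 genes was called by edgeR, by DESeq2 or by limma, and all had an unadjusted edgeR p above 0.05.

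The LC3 genes moved in opposite directions. Map1lc3a (ENSMUSG00000027602.9; chromosome 2, 155276297 to 155278073, plus strand) measured 35.9, 41.04, 38.3, 33.2 and 31.9 CPM in control libraries 1 to 5 and 50.3, 46.5, 54.6 and 59.5 CPM in F7 libraries 1 to 4. The groups did not overlap, and the gene rose from 36.1 ± 3.71 CPM (n = 5, SD) to 52.7 ± 5.61 CPM (n = 4, SD) (log2 fold change 0.54 with SE 0.09, edgeR adjusted p = 5.98e-04). Map1lc3b (ENSMUSG00000031812.16; chromosome 8, 121590361 to 121598760, plus strand), the form most used as an autophagy marker, measured 119, 167, 118, 110.3 and 109.6 CPM in control libraries 1 to 5 and 85.9, 79.9, 102 and 101 CPM in F7 libraries 1 to 4. All F7 libraries lay below all controls, control replicate 2 standing well above the other controls (log2 fold change -0.44 with SE 0.13, edgeR adjusted p = 0.0187). Without that library the log2 fold change was -0.33 and still called (edgeR adjusted p = 0.00808), and without F7 replicate 1 or 2 the call was lost (0.0628 and 0.0616). The 2 GABARAP genes were not called. Gabarap measured 193, 212, 222, 192 and 185 CPM in control libraries 1 to 5 and 194, 189, 229 and 234 CPM in F7 libraries 1 to 4, and Gabarapl1 46.9, 55.5, 51.7, 45.3 and 45.6 CPM in control libraries 1 to 5 and 48.9, 48.6, 59.0 and 54.8 CPM in F7 libraries 1 to 4. In both, F7 replicates 1 and 2 lay among the controls and replicates 3 and 4 above every control, save that control replicate 2 exceeded F7 replicate 4 for Gabarapl1.

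Of the cargo receptors, which link ubiquitinated material to LC3, Sqstm1 rose. Sqstm1 (ENSMUSG00000015837.15; chromosome 11, 50199366 to 50210827, minus strand), encoding p62, measured 318, 369.9, 346, 301 and 322 CPM in control libraries 1 to 5 and 421, 428, 403 and 389.9 CPM in F7 libraries 1 to 4. All F7 libraries exceeded all controls, a rise from 332 ± 26.7 CPM (n = 5, SD) to 411 ± 17.3 CPM (n = 4, SD) (log2 fold change 0.31 with SE 0.07, edgeR adjusted p = 0.00463). The call was lost when F7 replicates 1 and 2 were left out together (log2 fold change 0.26, edgeR adjusted p = 0.0836). Optn, encoding optineurin, measured 17.4, 16.7, 14.2, 11.8 and 12.2 CPM in control libraries 1 to 5 and 12.1, 10.6, 16.5 and 10.1 CPM in F7 libraries 1 to 4, with wide spread in both groups (log2 fold change -0.26 with SE 0.16, edgeR adjusted p = 0.224).

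The 4 F7 libraries were split for these genes along the header names mk4 (replicates 1 and 2) and mk3 (replicates 3 and 4), which also differ in depth. In 29 of 37 tested members (78.4%) both F7 replicates 3 and 4 lay above both replicates 1 and 2, and in 3 both lay below. The share was 25.5% above and 24.3% below among all tested genes. It held for 22 of 24 lysosome members, among them all 11 hydrolases and activators other than cathepsins, and for 7 of 11 autophagy members. The median of the 11 hydrolases lay -0.29 and -0.27 from the control mean on the log2 scale in the mk4 libraries of F7, but 0.07 and 0.03 in its mk3 libraries. Controls were spread as well, at 0.10, 0.23, 0.08, -0.18 and -0.14 for replicates 1 to 5. The part of depth, or of what the header names stand for, in this split was not tested.

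The counts of called members changed with it. When only F7 replicates 1 and 2 stood for the clone, 4 members were higher and 10 lower, beside 13% and 13.7% of all genes tested in that fit. Psap (-0.42, edgeR adjusted p = 0.0185), Asah1 (-0.33, 0.0209) and Lgmn were then called lower as well. With F7 replicates 3 and 4 alone, 3 were higher (Ctsz, Ctsl and Map1lc3a) and 1 lower (Ulk1), beside 6.4% and 7.6% of all genes. The log2 fold change of Lamp2 was -0.60 in the first fit and -0.21 in the second (edgeR adjusted p = 0.219), that of Lamp1 -0.37 and -0.12 (0.422), and that of Psap -0.42 and 0.01. For Ctsz the values were 1.52 and 1.77, for Ctsl 0.57 and 0.62, for Map1lc3a 0.43 and 0.67, and for Ulk1 -0.53 and -0.39. These 4 genes were called in both fits. The fits share all controls, and the difference between them was not tested.

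**Figure D3:**
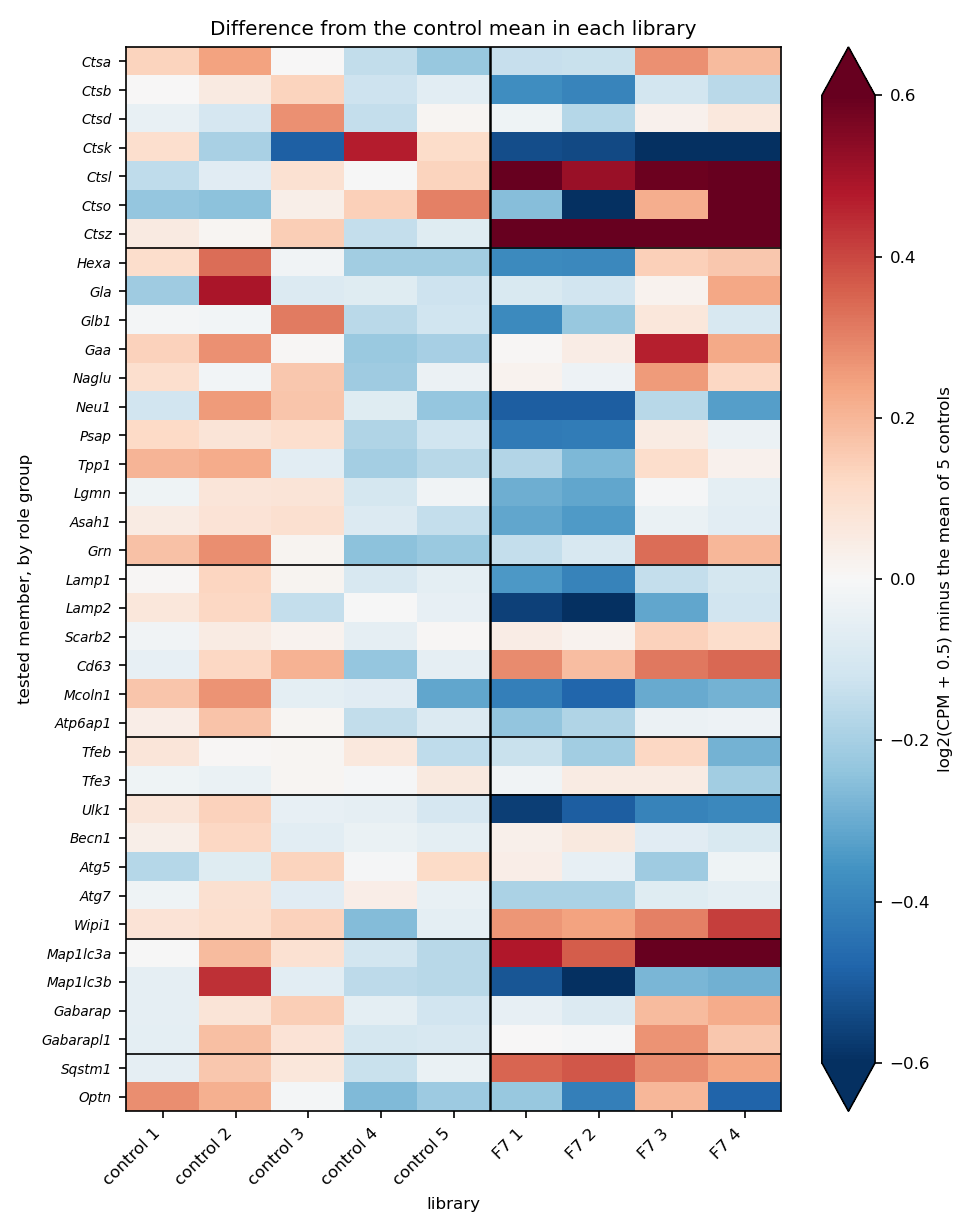
Each tested member (rows, in role groups parted by lines: cathepsins, other hydrolases and activators, membrane proteins and proton pump, transcription factors, autophagosome formation, LC3 and GABARAP family, cargo receptors) in each library (columns), coloured by log2(CPM + 0.5) minus its mean over the 5 controls; the colour scale ends at 0.6 on either side. Both F7 replicates 3 and 4 have higher values than replicates 1 and 2 in 29 of 37 rows, a difference the colours cannot show for Ctsz, whose F7 values lie beyond the end of the scale, and Ctsz, Ctsl and Map1lc3a are red in all 4.

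Chromosomal position went with some of the calls. On chromosome 8, 731 tested genes had a median log2 fold change of -0.35 and 60.7% were called lower. The 4 members there were Lamp1 (-0.24), Mcoln1 (-0.39), Map1lc3b (-0.44) and Asah1 (-0.19), and 3 of them were among the 8 members that fell. The medians of the 50 tested genes nearest to them were -0.41, -0.20, -0.32 and -0.37 in the same order. Ctsz belongs to a stretch of 110 tested genes near the distal end of chromosome 2 (169633013 to 181870830) with a median of 0.58, and 3 genes of the stretch had a higher value than Ctsz (1.64). Map1lc3a also lies on chromosome 2 but outside that stretch, and its 50 neighbours had a median of -0.07. For Ctsl, Ulk1, Sqstm1 and Lamp2 the neighbours' medians were -0.20, -0.08, 0.09 and 0.05. Outside chromosome 8, this stretch and a lower one near the distal end of chromosome 19, 5 of 32 tested members were higher and 5 lower (15.6% each), beside 17.7% and 15.2% of 13730 genes. These 13730 include tested genes without a known position, since 93.9% of tested genes matched GENCODE by symbol. The part of position in the members' values was not tested.

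**Figure D4:**
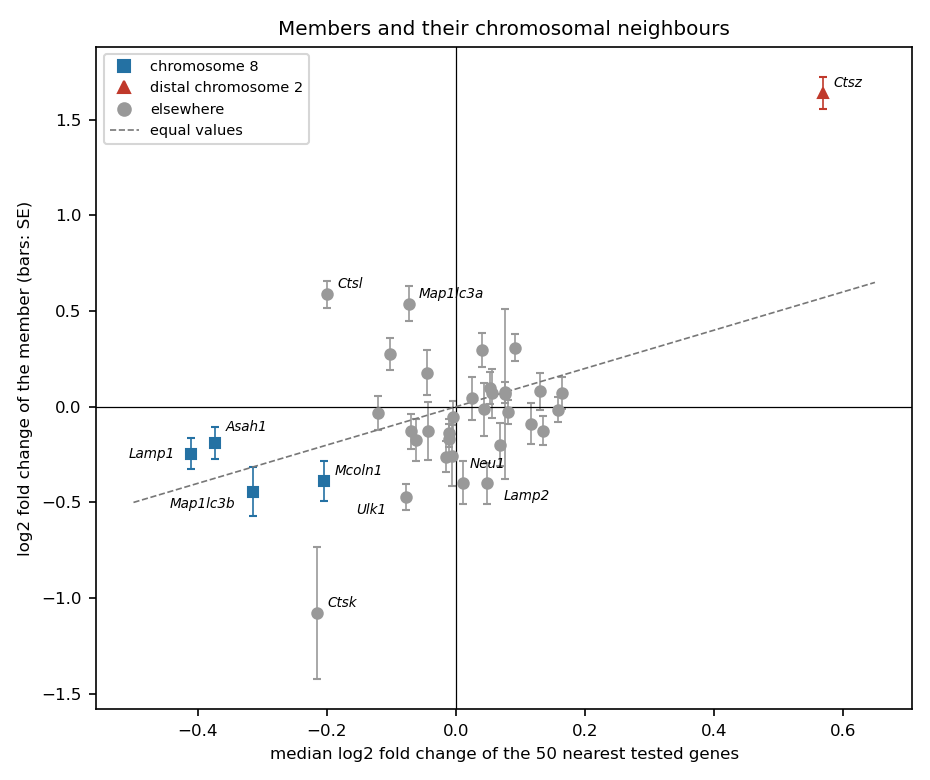
Log2 fold change of each tested member with its standard error (y axis) against the median log2 fold change of the 50 nearest tested genes on its chromosome (x axis). The 4 members on chromosome 8 (squares) lie where both values are negative, Ctsz (triangle) lies above its higher neighbours, and Ctsl and Map1lc3a lie above neighbours with negative medians.

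Beyond the 41 members, 139 other genes of the lysosome, its sorting route, autophagy and nutrient sensing were listed, of which 134 were tested. Of these, 11 rose (8.21%) and 22 fell (16.4%), beside 17.4% and 17.9% of all tested genes, with a median log2 fold change of -0.03. Without control replicate 1, control replicate 4 or F7 replicate 3 the number that rose was 7, and the shares of all genes in each of those fits are not given here. On chromosome 8, 8 of the 11 tested genes fell, where 60.7% of all tested genes on that chromosome were lower. Outside chromosome 8 and the distal parts of chromosomes 2 and 19, 11 of 123 rose and 14 fell (8.94% and 11.4%), beside 17.7% and 15.2% of all tested genes there or without a known position. Of 16 subunits of the V-ATPase, the proton pump, 2 rose and 3 fell, with the smallest adjusted p for Atp6v0d1 (-0.50), Atp6v0e2 (-0.36) and Atp6v1b2 (-0.34). Atp6v0d1 and Atp6v1b2 lie on chromosome 8. Of 27 further hydrolases and cofactors, 5 fell and 0 rose by edgeR (1 at an unadjusted p under 0.05 and 0 by DESeq2 or limma), led by Idua (-1.74), Galns (-0.60) and Man2b1 (-0.47). Idua, which degrades glycosaminoglycans, went from 5.36 ± 1.46 CPM (n = 5, SD) to 1.68 ± 0.684 CPM (n = 4, SD) (edgeR adjusted p = 3.52e-04), and the chromosome 8 genes Man2b1, Galns and Pla2g15 supplied 3 of the 5 falls.

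Beside the lists that follow stand 17.4% higher and 17.9% lower among all tested genes, and 60.7% lower among those on chromosome 8. Among 19 further lysosomal membrane proteins, 2 rose and 4 fell, with the smallest adjusted p for Npc1 (-0.37), Mfsd8 (-0.57) and Litaf (0.24). Npc1, the cholesterol exporter of the lysosome, fell from 57.7 ± 3.75 CPM (n = 5, SD) to 44.5 ± 2.85 CPM (n = 4, SD). Of 11 genes of mannose 6-phosphate and related sorting, 1 rose and 2 fell, namely Sort1 (-0.60), Vps35 (-0.25, on chromosome 8) and Gnptab (0.25). Sort1, the sorting receptor sortilin, had the largest change of these, from 619 ± 65.6 CPM (n = 5, SD) to 409 ± 37.1 CPM (n = 4, SD) (edgeR adjusted p = 2.22e-04). Of 27 further autophagosome genes, 1 rose and 3 fell. The smallest adjusted p belonged to Gabarapl2 (-0.39, on chromosome 8), Ulk2 (0.26) and Tmem41b (-0.24). Ulk2, the paralog of Ulk1, rose where Ulk1 fell, from 67.7 ± 3.62 CPM (n = 5, SD) to 80.9 ± 4.21 CPM (n = 4, SD). Of 12 further cargo receptors, 2 rose and 3 fell, led by Ncoa4 (-0.46), Fkbp8 (-0.30, on chromosome 8) and Calcoco1 (-0.37). Ncoa4, the receptor for ferritin, fell, and the mitophagy receptor Bnip3 rose from 16.2 ± 2.71 CPM (n = 5, SD) to 37.4 ± 17.5 CPM (n = 4, SD) (edgeR adjusted p = 0.00811). Of 19 genes listed for the nutrient control of TFEB and TFE3, 2 rose and 2 fell, led by Tsc2 (-0.25), Lamtor1 (0.25) and Rraga (0.21). That list also holds Mitf, a related transcription factor gene, which was not called. Of 3 cystatins, inhibitors of cysteine cathepsins, Cstb rose from 63.2 ± 5.06 CPM (n = 5, SD) to 88.3 ± 5.16 CPM (n = 4, SD) (log2 fold change 0.49, edgeR adjusted p = 1.56e-04).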

How the data were processed

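Gene-level counts were deposited by the authors as 1 raw table, of which 9 columns matched 5 control and 4 F7 samples by their labels and 1 further column of per-sample values was not used. Per the submitters' processing notes, reads were processed against mm10, and featureCounts, DESeq2 1.18.1 and R 3.4.3 were used. Which aligner and annotation they took, and whether strand entered the counting, is not given in the sources used here. A comparison table was deposited too, with the authors' log2 fold changes and p-values, which was used as an alternative. It covers more columns than the 9 used here, so it differs in samples as well as in method.

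Counts were filtered with filterByExpr (minimum count 10, minimum total 15) and normalised by TMM. All genes were fitted in edgeR 4.0.16 under R 4.3.3 (quasi-likelihood test, robust, group as the only term) with Benjamini-Hochberg adjustment. Calls were made at adjusted p under 0.05. The standard error is the absolute log2 fold change over the square root of the F statistic. CPM used TMM-scaled library sizes, and levels per kilobase used the union of GENCODE M21 exons. Library totals of 6041556 to 16032175 counts set the precision, and genes under the filter were not tested. The fit was tested on simulated data.

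Values of every library are given for called members whose log2 fold change was 0.5 or more in size, for the 2 members with the smallest adjusted p in each role group and for Tfeb and Tfe3. Up to 3 called genes with the smallest adjusted p are named in each pathway list. Values of other members and genes were added after they had been seen. The 41 members and all lists were chosen with earlier results of these data known. Alternatives covered normalisation, filters, DESeq2 1.42.0, limma voom 3.58.1, the threshold, left-out libraries and genome regions.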

Additional observations from a re-analysis of the deposited data

Results flagged for a closer look

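In 74 sets of values (37 tested members in each group), 1 library stood apart from the others of its group for 3 members, by Dixon's ratio at the 95% level, and chance flags about 1 set in 20. Control replicate 2 held 61.5 CPM of Gla, where the other controls held 37.7 to 41.6 CPM. Control replicate 3 held 52.0 CPM of Glb1, where the other controls held 37.3 to 41.4 CPM. Control replicate 2 held 167 CPM of Map1lc3b, where the other controls held 109.6 to 119 CPM.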

How the results depend on the processing

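The 14 calls were kept with RLE or upper-quartile factors, no low-count filter, a filter of 1 CPM in 4 libraries, DESeq2, limma voom, the length trend removed and the authors' deposited table. Ctsf was called lower in addition without a low-count filter, by DESeq2 and in the authors' deposited table. At an adjusted p under 0.01, 4 members were higher and 1 lower, with 1363 and 1531 of all genes and 3 pathway genes higher. Against a fold of 1.5, 1 and 0 members, 314 and 418 of all genes and 0 and 1 pathway genes were called, and at an unadjusted p under 0.05 this edgeR test called 1 member lower and 1 pathway gene higher. F7 replicates 1 and 2 alone gave a member median of -0.17 and 6 pathway genes higher. F7 replicates 3 and 4 alone gave 3 members higher and 1 lower, 988 and 1172 of all genes and 8 pathway genes lower. Without chromosome 8 and the blocks of chromosomes 19 and 2, 5 members and 14 pathway genes were lower. Leaving out each library in turn gave 4 to 6 members higher and 3 to 9 lower, member medians of -0.10 to -0.03, 7 to 14 pathway genes higher and 15 to 24 lower, and 1709 to 2867 and 1834 to 3005 of all genes. The sign of Psap turned with F7 replicates 3 and 4 alone (0.0071), and that of Tfe3 without F7 replicate 4 (-0.053 to 0.028 over the left-out libraries), with F7 replicates 1 and 2 alone (0.022) and with the length trend removed (0.025). The cause was not tested. Of the other 18 tested members, 12 changed sign in at least 1 of 25 settings and 1, Lgmn, was called in any.

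Correlations of same-numbered deviations were -0.0797, 0.0593, 0.197 and -0.05 for F7 replicates 1 to 4. The same-numbered control gave the highest correlation for F7 replicate 3 alone. Each value rests on a single pair of libraries, so they cannot decide whether replicate numbers pair the samples. With the replicate block on replicates 1 to 4, 4 members were higher and 7 lower (Cd63, Lamp1 and Wipi1 lost), against 6 and 9 without it on the same libraries. The numbers of all genes called in these fits are not given here, so the loss cannot be read as particular to the members. Ctsc, Ctsf, Ctsh and Ctss had too few reads for the filter.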
